A study of Mus musculus with 16 samples.

Results

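The genes described here encode the proteasome and the MHC class I antigen processing machinery of medullary thymic epithelial cells (mTEC). They were chosen by name from the 53360 Ensembl genes of the count table that had a mouse symbol. Every symbol made of Psm, a letter from a to g and a number, with or without a final letter, was taken, together with H2-K1, H2-D1, B2m, Tap1, Tap2, Tapbp, Nlrc5 and Erap1. Psmb11, the thymoproteasome subunit of cortical epithelium, and symbols ending in -ps were left out. The rule used no expression value and gave 56 genes among the 89407 rows of the table. Of these, 31 encode constitutive subunits of the 20S core and the 19S cap, 3 the catalytic subunits of the immunoproteasome, 7 assembly chaperones and 8 the class I molecule, its transactivator and the proteins that transport, trim and load its peptides. The others are the activators and the inhibitor of the 20S core and the testis variant Psma8.

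The proteasome degrades proteins that carry ubiquitin. Its 20S core is a stack of alpha and beta rings, and the beta subunits Psmb5, Psmb6 and Psmb7 carry the proteolytic sites. In cells exposed to interferon gamma and in many antigen-presenting cells these are replaced by Psmb8, Psmb9 and Psmb10, which form the immunoproteasome, and the PA28 cap encoded by Psme1 and Psme2 is made as well. The resulting peptides are carried into the endoplasmic reticulum by Tap1 and Tap2, trimmed by Erap1 and loaded, with the help of Tapbp, onto a heavy chain (H2-K1 or H2-D1) paired with beta-2-microglobulin (B2m). Nlrc5 is the transactivator of class I genes. In the thymic medulla, peptides made in this way are shown to developing T cells, so that self-reactive cells can be removed.

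RNA was sequenced from 8 mice of 4 to 6 weeks, labelled strain C57BL/6 (the methods give a mixed 129S2/Sv and C57BL/6J background), and each mouse gave a mature (MHCII high) and an immature (MHCII low) mTEC library from 10000 CD45- EpCAM+ Ly51- UEA+ cells. Age and cell number are those of the labels. The methods give an age of 4 weeks and a range of cell numbers per animal that starts at 10000. All mice of the Rbfox1 line were Rbfox1 lox/lox and all mice of the Rbfox2 line Rbfox2 lox/lox, controls included. In the tKO mice the allele was Foxn1 wildtype/cre, which expresses Cre in thymic epithelium, and in the controls Foxn1 wildtype/wildtype. Each line had 2 tKO mice and 2 littermate controls, so that loss of the RNA-binding protein and presence of Cre cannot be told apart.

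The libraries held 3737884 to 4636367 counts in mature and 1506134 to 2430287 in immature mTEC, and the 56 genes took 1.62% to 1.94% of them. H2-K1, H2-D1 and B2m alone gave 58.9% to 67.2% of those counts. Levels are CPM, counts scaled to a common library size with TMM factors. The labels of the populations were borne out by their markers. In control mice 6 of 6 mature mTEC genes, Aire among them, were higher in mature mTEC, as were 35.7% of all genes. Of the immature mTEC genes 5 of 5, Krt5 among them, were lower, as were 30.5% of all genes. H2-Aa among the mature genes is a class II gene, and the sort on MHCII itself bears on its direction. Rbfox2 counts were 34 to 70 in the 4 libraries of Rbfox2 tKO mice and 157 to 247 in those of their controls. Rbfox1 counts were 126 to 156 in mature mTEC of Rbfox1 tKO mice and 225 to 247 in their controls, but 299 to 327 and 381 to 391 in immature mTEC, where the levels were 151 to 153 and 160 to 163 CPM. The log2 fold changes of the deleted gene were -2.14 (SE 0.173) and -1.69 (SE 0.191) for Rbfox2 in mature and immature mTEC, both called by edgeR, and -0.66 (SE 0.135) and -0.09 (SE 0.111) for Rbfox1, neither of them called. Counts were made over the whole gene, so the deleted exons were not seen apart.

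Some of the rows could not be read. Psmb5 and Psme2b had no count in any of the 16 libraries, Psma8 had 8 counts in all, Psmg3 13 and Psmb8 107, between 0 and 23 in a library. Of 75 ribosomal protein genes, which every cell transcribes, 9 also had fewer than 200 counts over the 16 libraries, Rps21 with 1. A row at or near 0 was therefore not taken to show that a gene is silent, and no ratio of Psmb8 to Psmb5 was formed. The other 51 genes passed the filter on low counts in the comparisons of mature with immature mTEC, and Psmb8 passed it only in 2 fits, that of the tKO effects in mature mTEC and that of all 16 libraries.

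Levels per kilobase of merged exon differed among the transcripts of a complex with fixed stoichiometry. In mature mTEC the 7 alpha subunits had a median of 52.9 CPM per kb and ranged from 31.3 for Psma3 to 214.0 for Psma6, 6.84-fold. The 6 ATPases of the 19S base ranged from 29.1 (Psmc2) to 104.0 (Psmc5), and the 11 other subunits of the 19S cap from 17.1 (Psmd11) to 80.1 (Psmd2). The same genes marked both ends of these 3 groups in immature mTEC. The assembly chaperones Psmd5 and Psmd9 were at 6.96 and 1.26 CPM per kb. The class I molecule stood far above, at 1220 for H2-D1, 1350 for H2-K1 and 3730 for B2m. Annotated exons that the cells do not use lower such a level, so the order of genes and the size of the spread are rough. Psma6 has 1234 and Psma3 3894 merged exon bases, and their medians in mature mTEC were 267 and 121 CPM before division by length.

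The first question was how these genes differ between mature and immature mTEC. Of the 51 genes tested, 9 were higher and 15 lower in mature mTEC of control mice at an adjusted p under 0.05 (edgeR quasi-likelihood test, Benjamini-Hochberg adjustment over all genes tested). Of all 15357 genes tested, 66.2% were called (35.7% higher and 30.5% lower), so the share of called members, 24 of 51, was below that of all genes. The differences were also small. The median absolute log2 fold change of the members was 0.17, against 0.59 over all genes, and none of them passed a fold of 2, which 34.4% of all genes did. The 4 tKO mice per population gave 11 higher and 12 lower members, where 65.4% of all 15189 genes were called (35.7% higher, 29.7% lower, and 34.7% past a fold of 2). Both comparisons called 9 genes higher and 11 lower.

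The split between higher and lower members depended on the scaling and the filter. In control mice 37.5% of the called members were higher with TMM factors, but 54.2% with DESeq2's size factors, 55.6% with DESeq2, 59.1% with library totals and 71.4% among genes with at least 10 counts in every library. Under each of the 7 other ways of processing the counts and without each of the 8 libraries in turn, 7 members stayed called as higher in control mice (Psma6, Psmb7, Psmb10, Psmd10, Psme1, Psme2 and Psme3) and 6 as lower (Psmb9, Psmd1, Psmd7, Erap1, Tap1 and Tap2). The same 13 were called under every such setting in tKO mice.

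**Figure D1:**
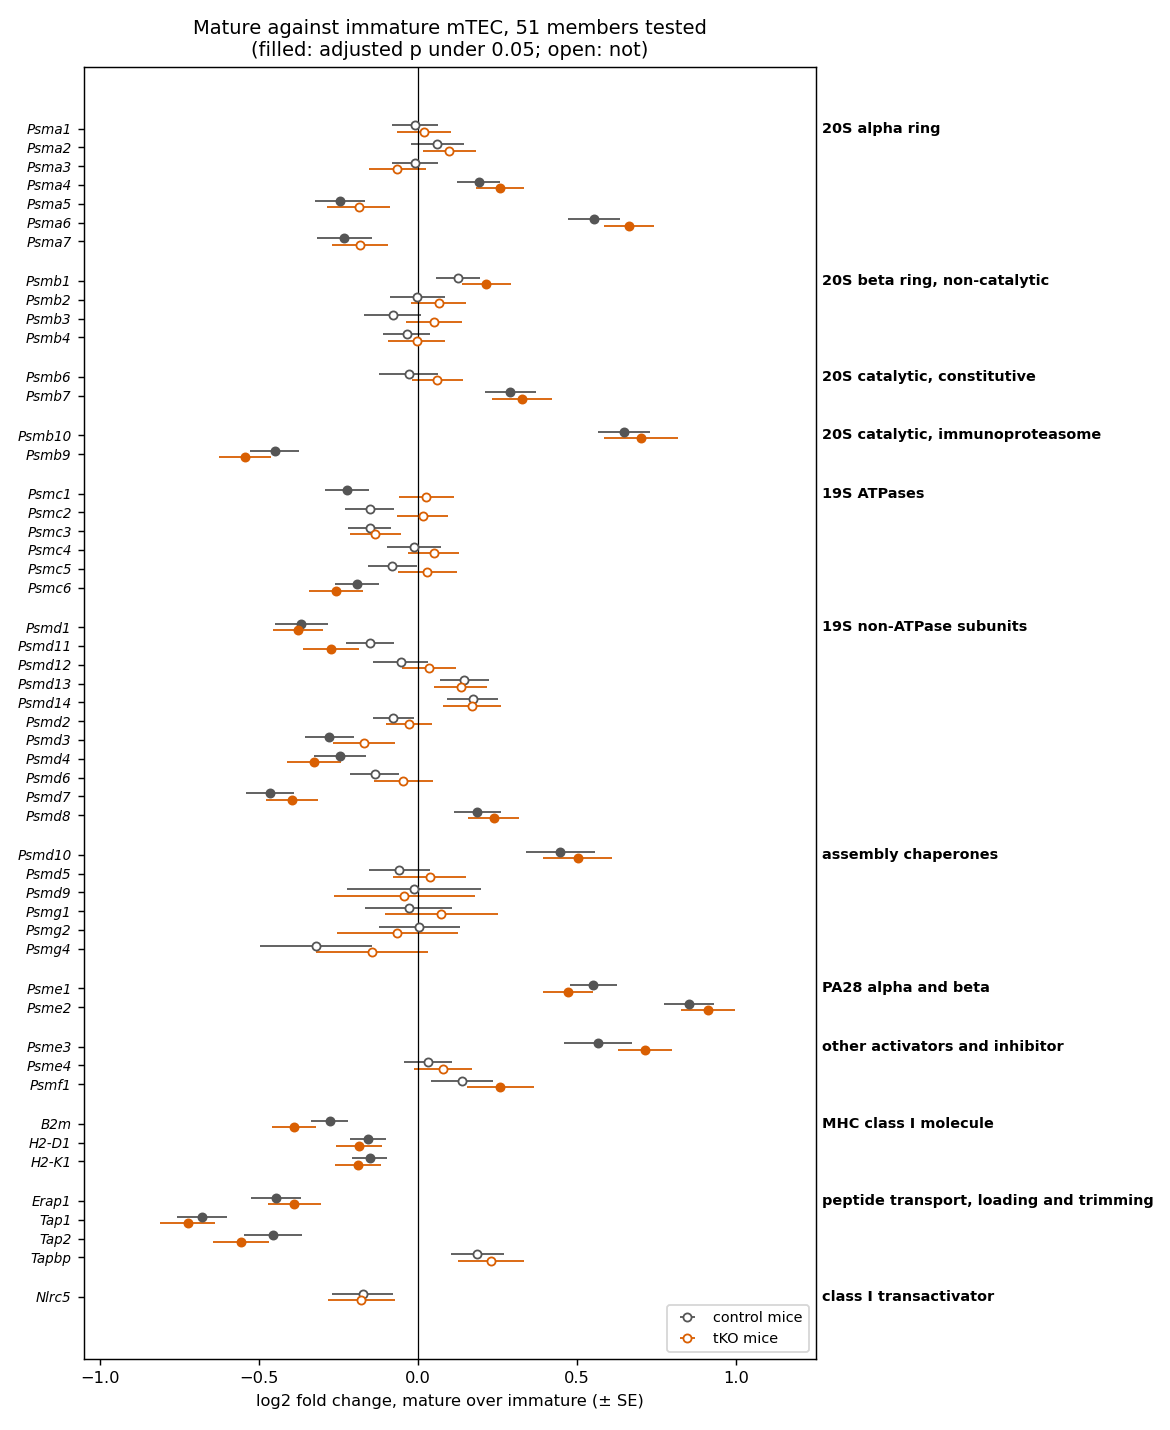
Log2 fold change of mature over immature mTEC (x axis) for the 51 members tested (y axis, grouped by role), with 1 SE on each side. Grey points are control and orange points tKO mice (4 mice each), filled where the adjusted p was under 0.05. Psme2 lies farthest to the right and Tap1 farthest to the left in both sets of mice.

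Both genes of the PA28 cap were higher in mature mTEC, and Psme2 had the largest rise of the 51 members. Psme2, the beta subunit, lay between 142 and 178 CPM (median 157) in immature cells and between 267 and 327 CPM (median 285) in mature ones, with no overlap and a higher value in the mature library of 8 of 8 mice. Its log2 fold change was 0.85 (SE 0.079, edgeR adjusted p = 3.06e-07) in control and 0.91 (SE 0.085, adjusted p = 6.88e-08) in tKO mice. Psme1, the alpha subunit, went from 172 to 215 CPM (median 186) to 238 to 297 (median 263), again without overlap, with log2 fold changes of 0.55 (SE 0.073) and 0.47 (SE 0.079). The 2 genes lie 5911 bases apart on chromosome 14 (GRCm38). Per kilobase, Psme2 was 1.31 to 1.42 times Psme1 in mature libraries and 0.943 to 1.29 times in immature ones, so the ranges of the ratio did not overlap.

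Psme3, whose product is the nuclear relative PA28 gamma, rose with them. Its level was 96.5 to 154 CPM (median 120) in immature and 176 to 203 CPM (median 184) in mature mTEC, and its log2 fold changes were 0.56 (SE 0.11) and 0.71 (SE 0.084). The remaining activator Psme4 (PA200) stayed at a median of 113 CPM in both populations and did not pass. Psmf1, which encodes the inhibitor PI31, passed in tKO mice alone at 0.26 (SE 0.11), beside 0.14 (SE 0.097) in control mice, and the difference between these was not called.

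The catalytic subunits of the immunoproteasome moved apart. Psmb10 rose from 156 to 211 CPM (median 182) in immature to 235 to 349 CPM (median 279) in mature mTEC, higher in 8 of 8 mice, with log2 fold changes of 0.65 (SE 0.082, edgeR adjusted p = 7.08e-06) in control and 0.70 (SE 0.12) in tKO mice. Psmb9 fell from 123 to 151 CPM (median 134) to 85.1 to 105 CPM (median 92.4), lower in 8 of 8 mice, with log2 fold changes of -0.45 (SE 0.078, adjusted p = 0.000132) and -0.54 (SE 0.083). Neither gene's populations overlapped. Psmb8 counts were too few for a test between the populations.

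Their constitutive counterparts differed less. Psmb6, replaced by Psmb9, lay between 123 and 173 CPM in mature and between 129 and 164 in immature mTEC, and its log2 fold changes of -0.03 (SE 0.093) and 0.06 (SE 0.081) did not pass. Psmb7, replaced by Psmb10, rose from 123 to 173 CPM (median 143) to 152 to 212 (median 173), by 0.29 (SE 0.080) and 0.33 (SE 0.093) on the log2 scale, with overlapping ranges but a higher value in mature mTEC of 8 of 8 mice.

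**Figure D2:**
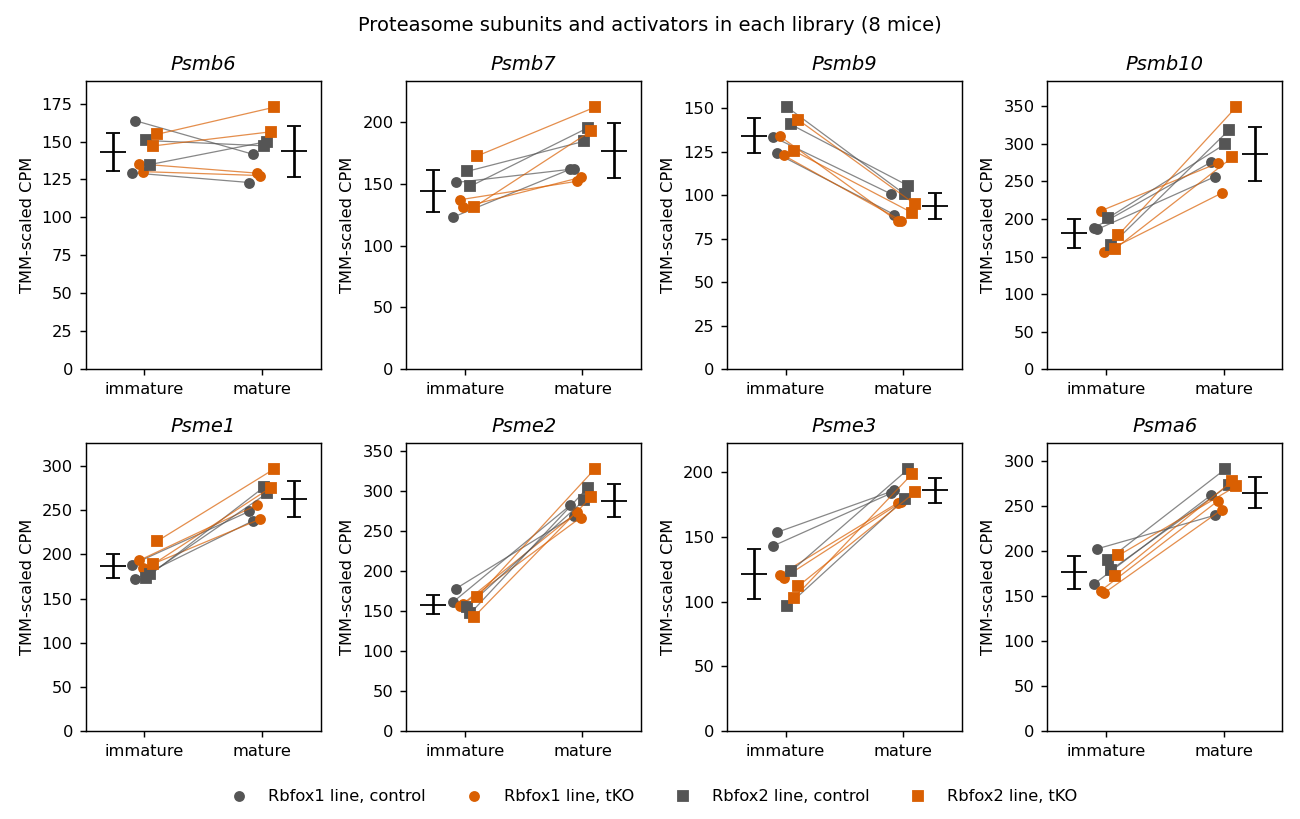
TMM-scaled CPM (y axes, from 0) of 8 proteasome genes in the immature and mature library of each mouse, joined by a line. Circles are the Rbfox1 and squares the Rbfox2 line, grey control and orange tKO; black marks give the mean and SD over 8 mice. Lines rise for Psmb10, Psme1, Psme2, Psme3 and Psma6 and fall for Psmb9 in each of the 8 mice.

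Within a library, the level of each immunosubunit relative to its counterpart was compared over the 8 mice on the log2 scale per kilobase. The log2 ratio of Psmb9 to Psmb6 was -1.06 ± 0.156 (SD, n = 8) in immature and -1.57 ± 0.178 in mature mTEC. It was lower in mature mTEC of 8 of 8 mice, with a mean difference of -0.52 ± 0.153. A sign-flip permutation test, exact and two-sided, gave p = 0.00781, the smallest that 8 mice allow, and the same after adjustment over the 2 ratios. The log2 ratio of Psmb10 to Psmb7 went the other way, from 1.33 ± 0.2 to 1.70 ± 0.0951, higher in 8 of 8 mice by 0.37 ± 0.167 (the same exact test, p = 0.00781, adjusted p = 0.00781). Psmb10 was 2.52 to 3.38 times as high as Psmb9 per kilobase in immature and 5.86 to 7.89 times as high in mature libraries. The size of any such ratio depends on the annotated exon lengths, 1705 bases for Psmb10 and 3660 for Psmb9. Its change between populations does not. In CPM the medians of Psmb10 and Psmb9 were 182 and 134 in immature and 279 and 92.4 in mature mTEC.

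The genes of peptide transport and trimming were lower in mature mTEC. Tap1, a subunit of the peptide transporter, fell from 156 to 180 CPM (median 167) to 86.6 to 120 CPM (median 101), lower in 8 of 8 mice and without overlap. Its log2 fold changes were -0.68 (SE 0.079, edgeR adjusted p = 3.2e-06) in control and -0.73 (SE 0.088, adjusted p = 1.53e-06) in tKO mice. Tap2, the other subunit, fell from 249 to 325 CPM to 171 to 217 CPM, by -0.46 (SE 0.091) and -0.56 (SE 0.087). Erap1, the aminopeptidase that trims peptides in the endoplasmic reticulum, fell from 169 to 213 CPM to 124 to 158 CPM, by -0.45 (SE 0.078) and -0.39 (SE 0.084). Tapbp, or tapasin, had the opposite sign, 0.18 (SE 0.083) and 0.23 (SE 0.10), with adjusted p-values of 0.0642 and 0.0608 that did not pass, and overlapping ranges of 125 to 213 CPM and 157 to 243 CPM. It was called higher in 5 of the 7 other ways of processing in control mice (0.12 to 0.33 over all alternatives) and in 6 of 7 in tKO mice (0.14 to 0.36). Without single libraries it was called in 1 of 8 fits in control and in 2 of 8 in tKO mice.

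Tap1 and Psmb9, which both fell, start from opposite strands of chromosome 17 and their 5′ ends overlap by 212 exon bases. No source used here says whether strand was used in counting, so how reads from the overlap were counted is not known. The same holds for other members whose exons overlap a gene on the opposite strand. Among them are Erap1 with Cast (11.5% of its exon bases), Tap2 with Gm15821 (14.1%), Psmb7 with Nek6 (11.8%) and Tapbp with Gm19412 (24.9%). Psmb8 starts 495 bases beyond the end of Tap1, and Tap2 a further 2072 bases beyond the end of Psmb8. The RefSeq promoter window of Tap1 (250 bases before and 50 after its start, chr17:34187306-34187605, plus strand, GRCm38.p6) is shown because it shares 275 bases with that of Psmb9. Capitals mark a CCAAT box.
Tap1: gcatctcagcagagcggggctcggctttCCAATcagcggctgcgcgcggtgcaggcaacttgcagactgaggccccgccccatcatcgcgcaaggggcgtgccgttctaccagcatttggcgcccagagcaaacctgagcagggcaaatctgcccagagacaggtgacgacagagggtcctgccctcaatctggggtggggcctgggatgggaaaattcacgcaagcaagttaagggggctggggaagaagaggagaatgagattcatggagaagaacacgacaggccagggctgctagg

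The class I molecule was also lower in mature mTEC, by less. B2m fell from 3400 to 4760 CPM (median 4200) to 2760 to 3600 CPM (median 3290), with log2 fold changes of -0.28 (SE 0.058, edgeR adjusted p = 0.000675) and -0.39 (SE 0.070, adjusted p = 9.95e-05). The populations overlapped, although the mature value was the lower one in 8 of 8 mice. The heavy chains H2-K1, at medians of 4610 CPM in immature and 4000 CPM in mature mTEC, and H2-D1, at 3670 and 3170 CPM, were lower in 8 of 8 mice as well. Their log2 fold changes of -0.15 to -0.19 (SE 0.055 to 0.072) passed, but depended on the setting. Over the 15 alternatives in control mice H2-D1 ranged from -0.19 to -0.00868 and H2-K1 from -0.186 to -0.00369, and the call was lost in 9 and 8 of them. Reads that also fit other class I heavy chains could bear on the values of both genes, which was not tested. Nlrc5 was at medians of 61.7 and 54.3 CPM, and its log2 fold changes of -0.18 (SE 0.095 and 0.11) did not pass.

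**Figure D3:**
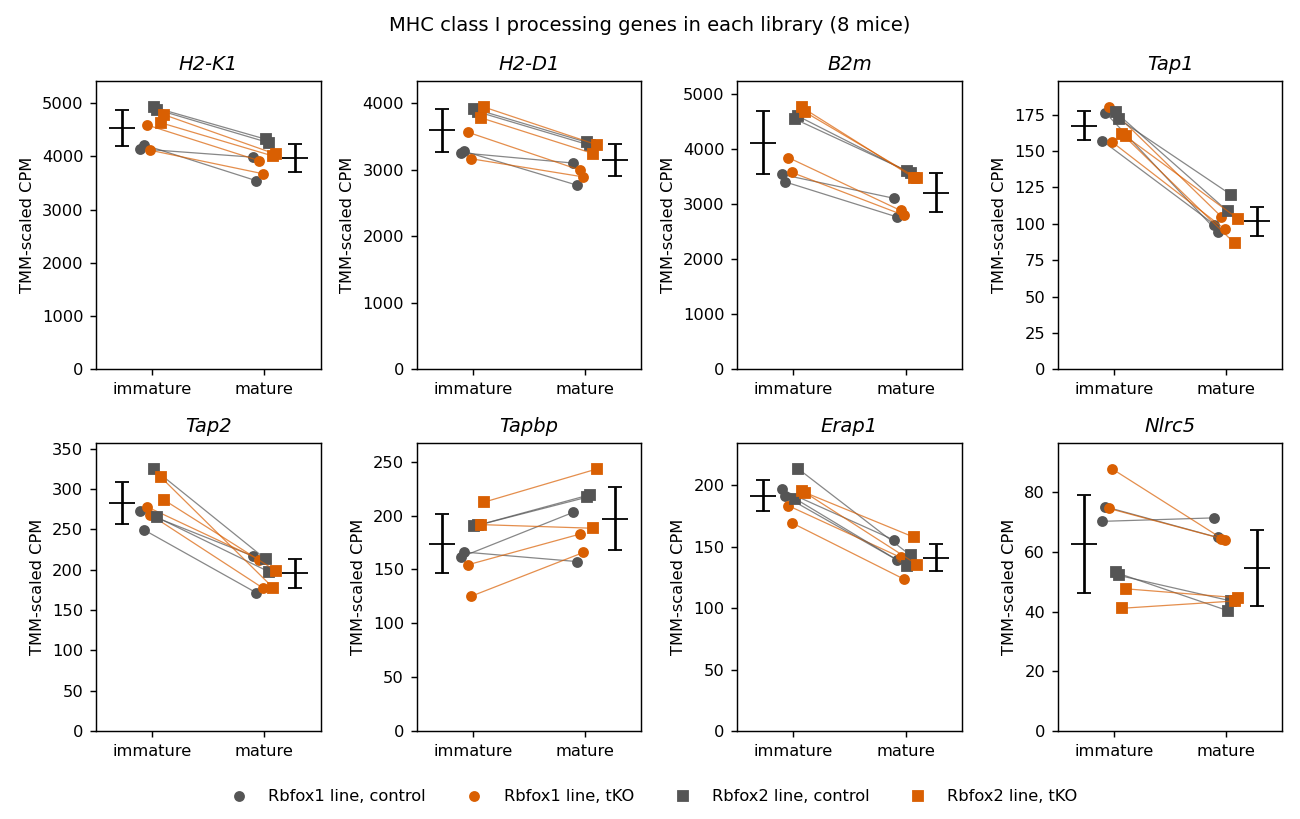
TMM-scaled CPM (y axes, from 0) of 8 class I processing genes in the immature and mature library of each mouse, joined by a line. Circles are the Rbfox1 and squares the Rbfox2 line, grey control and orange tKO; black marks give the mean and SD over 8 mice. Lines fall for H2-K1, H2-D1, B2m, Tap1, Tap2 and Erap1 in each of the 8 mice.

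Among the 30 constitutive subunits tested, 4 were higher and 8 lower in mature mTEC of control mice. This share was below that of all genes, of which 66.2% were called (35.7% higher and 30.5% lower). Psma6 stood apart from its ring, with 153 to 202 CPM (median 176) in immature and 239 to 291 CPM (median 267) in mature mTEC. Its log2 fold changes were 0.55 (SE 0.082) and 0.66 (SE 0.079). Of the other 6 alpha subunits, Psma4 was called higher in both sets of mice and Psma5 and Psma7 lower in control mice alone. In control mice the calls of Psma4, Psma5 and Psma7 were kept in 6, 3 and 2 of the 7 other ways of processing. Without single libraries they were kept in 5, 7 and 5 of 8 fits. None of the 4 non-catalytic beta subunits passed in control mice with TMM factors, although Psmb1 (0.12) did in 4 of the 7 other ways of processing. In tKO mice Psmb1 was called at 0.21. Without single libraries it was called in 0 of 8 fits in control and in 5 of 8 in tKO mice. In the 19S cap the lower members were Psmd7 (-0.47, SE 0.074), the partner of the deubiquitinase Psmd14, the scaffold subunit Psmd1 (-0.37, SE 0.084), Psmd3 (-0.28, SE 0.077), the ubiquitin receptor Psmd4 (-0.25, SE 0.082), and the ATPases Psmc1 (-0.22, SE 0.069) and Psmc6 (-0.19, SE 0.070). Psmd7 fell from 141 to 167 CPM to 107 to 128 CPM in 8 of 8 mice. Psmd8 was called higher, at 0.19 (SE 0.074), a call kept in 6 of the 7 other ways of processing and in 2 of 8 fits without a library. Psmd14 (0.17) and Psmd13 (0.14), which did not pass, were called higher in 4 and 3 of these 7 and in 1 and 0 of these 8. The calls of Psmc6, Psmd4 and Psmc1 in control mice were kept in 1, 2 and 3 of these 7 and in 5, 7 and 8 of these 8. In tKO mice 5 constitutive subunits were higher and 5 lower, where 65.4% of all genes were called. Psmc1 (0.03) and Psmd3 (-0.17) did not pass there.

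Of the 6 assembly chaperones tested, where 66.2% of all genes were called in control and 65.4% in tKO mice, Psmd10 alone passed. Its product, gankyrin, escorts an ATPase of the 19S base during assembly. It lay between 39.7 and 52.1 CPM in immature and between 54.0 and 70.0 CPM in mature mTEC, and differed by 0.45 (SE 0.11) and 0.50 (SE 0.11) on the log2 scale in control and tKO mice. Psmg1, Psmg2, Psmg4, Psmd5 and Psmd9 had log2 fold changes of -0.32 to 0.07 in the 2 sets of mice, and Psmg4 had the largest of them (-0.32, SE 0.18).

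Markers of other cells moved with maturity. In control mice 6 of the 6 testable genes of dendritic cells and macrophages were higher in mature mTEC, as were 35.7% of all genes. The summed CPM of all 8 genes of that list was 336 to 417 in mature and 39.8 to 60.2 in immature libraries. Ptprc encodes the CD45 used to gate such cells out, and its median was 1.6 CPM in the immature and 11 CPM in the mature libraries. Clec9a and Xcr1 were at a median of 0 in immature and of 0.451 and 5.16 CPM in mature libraries. The summed CPM of 6 T cell genes was 45.2 to 57.7 and 3.43 to 23.3, and that of 3 B cell genes 12.3 to 20.8 and 0 to 3.45. The fibroblast list summed to 219 to 363 CPM in mature and 137 to 1400 in immature libraries, the endothelial list to 20.4 to 28.8 and 15.8 to 160. The study describes mTEC as transcribing genes restricted to other tissues. RNA of these markers from mTEC and from other cells cannot be told apart here. The part of other cells in the differences above was not tested. In such libraries a change in the share of a cell type and a change of RNA per cell cannot be told apart.

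Other genes of these pathways were taken from 4 lists. Of all genes tested in control mice, 66.2% were called (35.7% higher and 30.5% lower). Of 12 proteasome-associated factors tested in control mice, 1 was higher and 4 were lower, with the shuttle factor Ubqln2 (-0.89, SE 0.095), Zfand5 (-0.53, SE 0.085) and Akirin2 (-0.43, SE 0.11), which brings proteasomes into the nucleus, at the lower end. Of 10 loading factors and cytosolic peptidases, 4 were higher and 1 lower. The chaperones Calr (0.60, SE 0.066) and Canx (0.39, SE 0.072), which fold class I molecules, were higher, and the leucine aminopeptidase Lap3 was lower (-0.63, SE 0.084). Of 11 other class I heavy chains and relatives, 2 were higher and 7 lower. They ranged from Fcgrt, the neonatal Fc receptor (-1.88, SE 0.16), and H2-T22 (-1.0, SE 0.081) to the secreted H2-Q10 (3.24, SE 0.24), whose median went from 1.74 CPM in immature to 23.5 CPM in mature cells. Many class I heavy chains, H2-K1 and H2-D1 among them, are close in sequence. Reads that fit several of them could be counted for the wrong one.

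Of 20 regulators of these genes, 6 were higher and 8 lower in mature mTEC of control mice, where 66.2% of all genes were called. Stat2 (-1.81, SE 0.11), which carries interferon signals to the nucleus, and the interferon gamma receptor chain Ifngr1 (-1.83, SE 0.1) fell. Ifngr1 went from a median of 180 to 49.5 CPM and Stat2 from 189 to 55.1 CPM. Nfe2l1, which drives transcription of proteasome subunits when proteolysis is limiting, was lower (-0.75, SE 0.074), and Irf8 higher (1.66, SE 0.096); these 2 were picked out after their values were seen. In tKO mice the 4 lists had 2, 4, 2 and 7 higher and 4, 1, 8 and 8 lower genes, in the order given above. There 65.4% of all genes were called (35.7% higher and 29.7% lower).

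Motifs of interferon and stress factors were searched in the RefSeq promoter windows of 46 of the 56 members, on both strands, and in those of all 27025 genes with a window. The interferon-stimulated response element, written as GAAA, any 2 bases and GAAA, was in 7 members (B2m, Erap1, Psmb3, Psmd4, Psmd9, Psme1 and Psmg4), 15.2% of those with a window, against 3.99% of all genes. Of these, Psme1 was higher and B2m, Erap1 and Psmd4 were lower in mature mTEC. The gamma-activated site, TTC, any 3 bases and GAA, which is its own reverse complement, was in Psmb8, Psmd2 and Psmg1 (6.52% against 9.55%). The kappa B site, GGG, any 2 bases, TT, any base and CC, was in B2m, H2-D1 and H2-K1 (6.52% against 5.48%). The core of the antioxidant response element, TGAC, any 3 bases and GC, was in 7 members (15.2% against 14%) and CCAAT in 18 (39.1% against 41.1%). A match describes the letters in the window and no more. The windows of Psme1 (chr14:55578244-55578543, plus strand) and Psme2 (chr14:55591052-55591351, minus strand) are shown as those of the PA28 pair, and that of B2m (chr2:122147437-122147736, plus strand) because it holds 3 of the motifs, all in GRCm38.p6. Capitals mark an interferon-stimulated element in Psme1 and, in B2m, the interferon-stimulated element, the kappa B site and the CCAAT box in that order. Psme2 had another window (chr14:55590972-55591271, minus strand), which is not shown, and neither of its windows held any of the motifs.
Psme1: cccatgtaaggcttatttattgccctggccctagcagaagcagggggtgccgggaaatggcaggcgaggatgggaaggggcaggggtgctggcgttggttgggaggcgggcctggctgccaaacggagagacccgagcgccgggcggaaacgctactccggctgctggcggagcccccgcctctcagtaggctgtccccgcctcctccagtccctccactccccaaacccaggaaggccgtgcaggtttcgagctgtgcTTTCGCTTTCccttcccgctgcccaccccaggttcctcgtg
Psme2: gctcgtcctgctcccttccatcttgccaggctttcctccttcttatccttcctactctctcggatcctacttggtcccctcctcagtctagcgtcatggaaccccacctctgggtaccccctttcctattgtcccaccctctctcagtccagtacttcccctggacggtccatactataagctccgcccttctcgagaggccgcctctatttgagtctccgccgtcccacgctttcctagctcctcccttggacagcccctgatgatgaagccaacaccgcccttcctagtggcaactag
B2m: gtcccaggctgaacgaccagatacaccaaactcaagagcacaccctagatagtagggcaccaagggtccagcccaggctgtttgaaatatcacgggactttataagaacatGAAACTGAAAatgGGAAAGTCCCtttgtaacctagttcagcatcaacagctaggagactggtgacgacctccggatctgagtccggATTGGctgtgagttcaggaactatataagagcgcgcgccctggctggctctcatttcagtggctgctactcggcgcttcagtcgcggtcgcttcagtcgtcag

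The second question was whether loss of Rbfox1 or Rbfox2 changed these genes. No member passed in any tKO comparison. Foxn1 itself, which carries the Cre in tKO mice, was higher in them over both lines by 0.68 (SE 0.063) on the log2 scale in mature and 0.79 (SE 0.093) in immature mTEC. In mature mTEC 52 members were tested, and 0.0222% of all 18021 genes were called for Rbfox1 (4 genes) and 0.0555% for Rbfox2 (10 genes). In immature mTEC 51 were tested, and 0.0383% (5 genes) and 0.0919% (12 genes) of all 13060 genes were called. At an unadjusted p under 0.05 there were 0 and 1 members in mature and 1 and 0 in immature mTEC, for Rbfox1 and Rbfox2. DESeq2 called 0 members in each comparison as well, with 0 at an unadjusted p under 0.05 in each of these 4.

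The tKO effects were small beside their errors. The median absolute log2 fold change of the members was 0.05 and 0.06 in mature (Rbfox1 and Rbfox2) and 0.09 and 0.08 in immature mTEC, against 0.13, 0.14, 0.15 and 0.16 over all genes. The lowest unadjusted p in mature mTEC of the Rbfox2 line belonged to Tap1, with a log2 fold change of -0.26 (SE 0.11, edgeR adjusted p = 0.863). Psme3 had the lowest in immature mTEC of the Rbfox1 line, at -0.31 (SE 0.13, edgeR adjusted p = 0.812), followed by Psmf1 (-0.30, SE 0.15) and Psmc1 (-0.24, SE 0.12). The 3 lowest in mature mTEC of the Rbfox1 line were those of Psmb9 (-0.15), Psmc6 (-0.15) and Psmd11 (-0.15), and in immature mTEC of the Rbfox2 line those of Psmc1 (-0.24), Psme1 (0.22) and Psmd5 (-0.25), none of which passed. Psmb8 had values of 0.58 and 0.82 in mature mTEC from 0 to 23 counts a library, and is left out of the ranges that follow.

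A bound could be set on most effects. The 95% interval, taken with the residual degrees of freedom alone, lay within a change of 1.5-fold in either direction for 48 of 52 members in mature mTEC of either line and for 43 of 51 in immature mTEC of either line. The assembly chaperone Psmd9, with 13 to 44 counts a library, lay outside in each of these 4 comparisons. Over both lines, with 4 tKO against 4 control mice, 0 of 51 members passed in each population, where 0.0355% of all 16913 genes were called in mature and 0.106% of all 12314 in immature mTEC. There the interval lay within 1.5-fold for 51 of 51 members in mature mTEC, from -0.44 to 0.47 on the log2 scale at the widest, and for 48 of 51 in immature mTEC. At an unadjusted p under 0.05 there were 2 members in mature (Psmd11 -0.17, Psmb9 -0.15) and 1 in immature mTEC (Psmc1 -0.24, edgeR adjusted p = 0.492). DESeq2 called 0 in both, with 0 and 1 at an unadjusted p under 0.05.

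**Figure D4:**
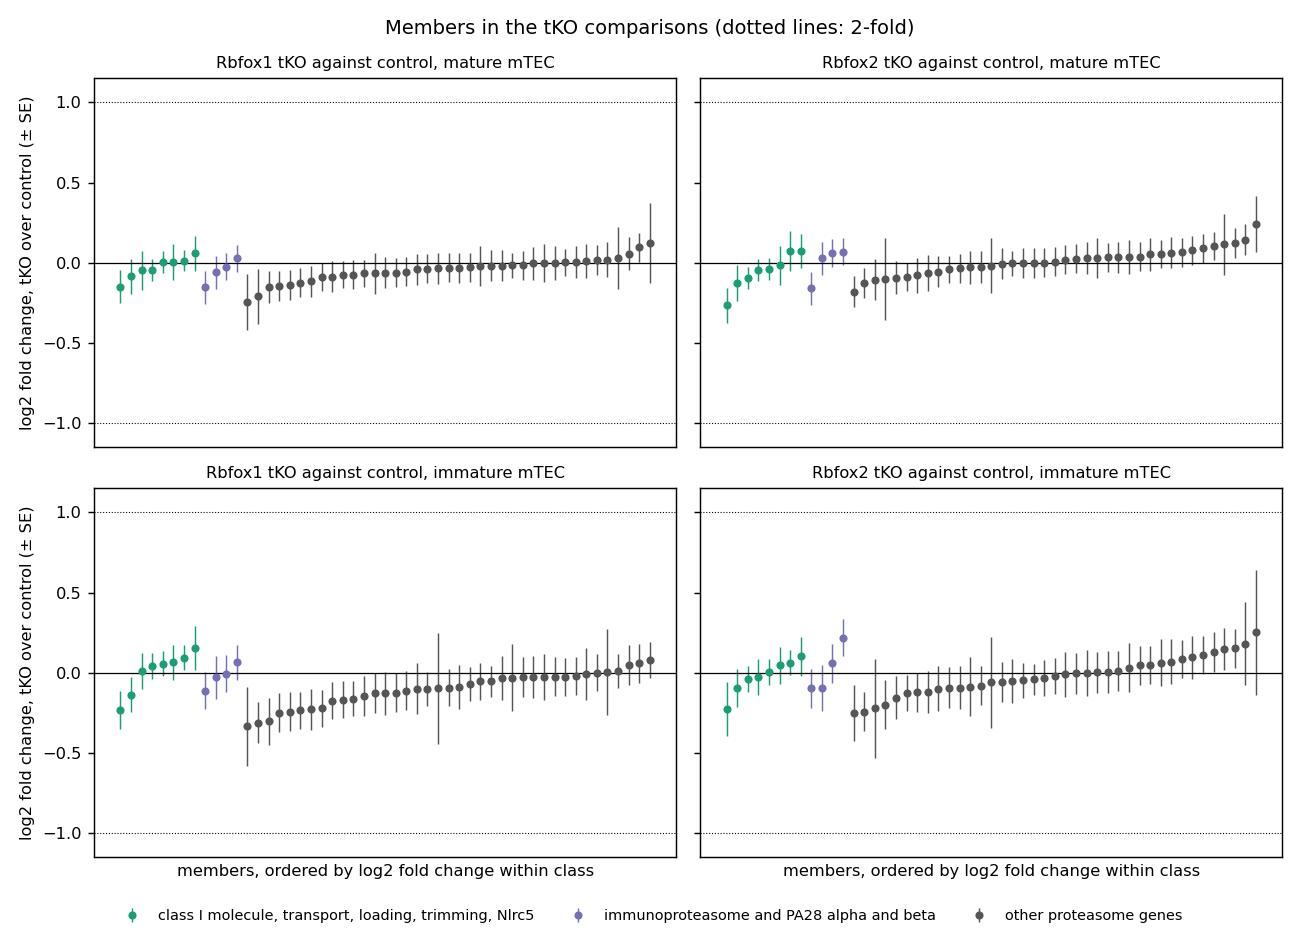
Log2 fold change of tKO over control (y axes) for the members in each line and population (2 tKO and 2 control mice each), ordered by value within 3 classes along the x axis, with 1 SE on each side. Psmb8 is left out. The members lie between -0.34 and 0.25, inside the dotted lines that mark a 2-fold change, and none passed the test.

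The tKO effect on the members did not differ detectably between the lines or the populations either. No member was called for the difference between the Rbfox2 and the Rbfox1 effect, where 0.00555% of all genes were called in mature and 0.00766% in immature mTEC (1 gene each), and 1 member in each had an unadjusted p under 0.05 (Tap1, -0.32, SE 0.15, and Psmb4, 0.37, SE 0.17). No member was called for the difference between tKO and control mice in the change from immature to mature mTEC, nor was any of the 17442 genes tested (0.00%). That fit did not pair the libraries of a mouse. With a block for each mouse 49 genes were called (7 higher and 42 lower), again without a member. The member with the lowest unadjusted p without the block was Psmc1 (0.25, SE 0.10, edgeR adjusted p = 0.918), the only one under 0.05. DESeq2 called 0 members in these 3 comparisons, with 0 at an unadjusted p under 0.05.

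Members were called between the 2 lines. This comparison, 4 mice of the Rbfox2 against 4 of the Rbfox1 line with genotype as a covariate, was added after the data were seen. In mature mTEC 17 of 51 members were higher and 1 was lower in the Rbfox2 line, where 14.2% of all genes were called (6.72% higher and 7.47% lower). In immature mTEC 6 were higher and 3 lower, where 24.2% of all genes were called (11.7% higher and 12.5% lower). The median log2 fold change of the members was 0.15 in mature and 0.07 in immature mTEC, against -0.01 and 0.00 over all genes. The floxed allele and everything else that differs between the lines, litters included, cannot be told apart.

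Nlrc5 differed most. In mature mTEC it lay between 63.9 and 71.4 CPM in the Rbfox1 and between 40.3 and 44.6 CPM in the Rbfox2 line, and in immature mTEC between 70.2 and 87.8 CPM and between 41.1 and 53.1 CPM. The lines overlapped in neither population, and the log2 fold changes were -0.63 (SE 0.082, edgeR adjusted p = 4.08e-05) and -0.66 (SE 0.12, adjusted p = 0.000435). Some class I genes were called in the other direction. B2m was 2760 to 3110 CPM in the Rbfox1 and 3470 to 3600 CPM in the Rbfox2 line in mature mTEC and 3400 to 3850 and 4550 to 4760 CPM in immature mTEC, with log2 fold changes of 0.28 (SE 0.052) and 0.37 (SE 0.054). Tapbp (0.29, SE 0.083, and 0.37, SE 0.091) and H2-D1 (0.18, SE 0.053, and 0.22, SE 0.056) were also higher in the Rbfox2 line in both populations, and H2-K1 in immature mTEC (0.17, SE 0.056). H2-K1 in mature mTEC (0.13, SE 0.054) and Tap1, Tap2 and Erap1 in either population did not pass, with values from -0.0013 for Tap1 to 0.16 for Tap2, both in immature mTEC.

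In mature mTEC 11 of 30 constitutive proteasome subunits were called higher in the Rbfox2 line, as were 6.72% of all genes. A positive sign was seen in 30 of 30, as in 49.0% of all genes. Psmd4 (0.03), the lowest of them, turned negative in 3 of the 13 alternatives, reaching -0.03. Whether the lines differed more in one population was not tested. Psmb7 lay between 152 and 162 CPM in the Rbfox1 and between 184 and 212 CPM in the Rbfox2 line (0.31, SE 0.065), Psmb1 between 175 and 193 and between 215 and 240 CPM (0.30, SE 0.063) and Psmb3 between 87.2 and 94.1 and between 103 and 120 CPM (0.31, SE 0.071). Psmf1 differed by 0.39 (SE 0.080). In immature mTEC 2 of 30 constitutive subunits passed, Psmb1 (0.26, SE 0.074) and Psmc2 (0.26, SE 0.082), where 24.2% of all genes were called. Psmg2 (-0.50, SE 0.16) and Psme3 (-0.31, SE 0.098) were lower. Under each of 5 other ways of processing and without each of 8 libraries, Nlrc5 and B2m stayed called in both populations, Tapbp in immature and Psmb1, Psmb3, Psmb7, Psmd8 and Psmf1 in mature mTEC. Without the second tKO mouse of the Rbfox2 line 8 members were called in mature mTEC in place of 18, and without the third tKO mouse of the Rbfox1 line 9. Without the first or the second control mouse of the Rbfox2 line 11 and 10 were called higher there in place of 17. In immature mTEC 5 members were called without the first control mouse of the Rbfox2 line in place of 9.

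**Figure D5:**
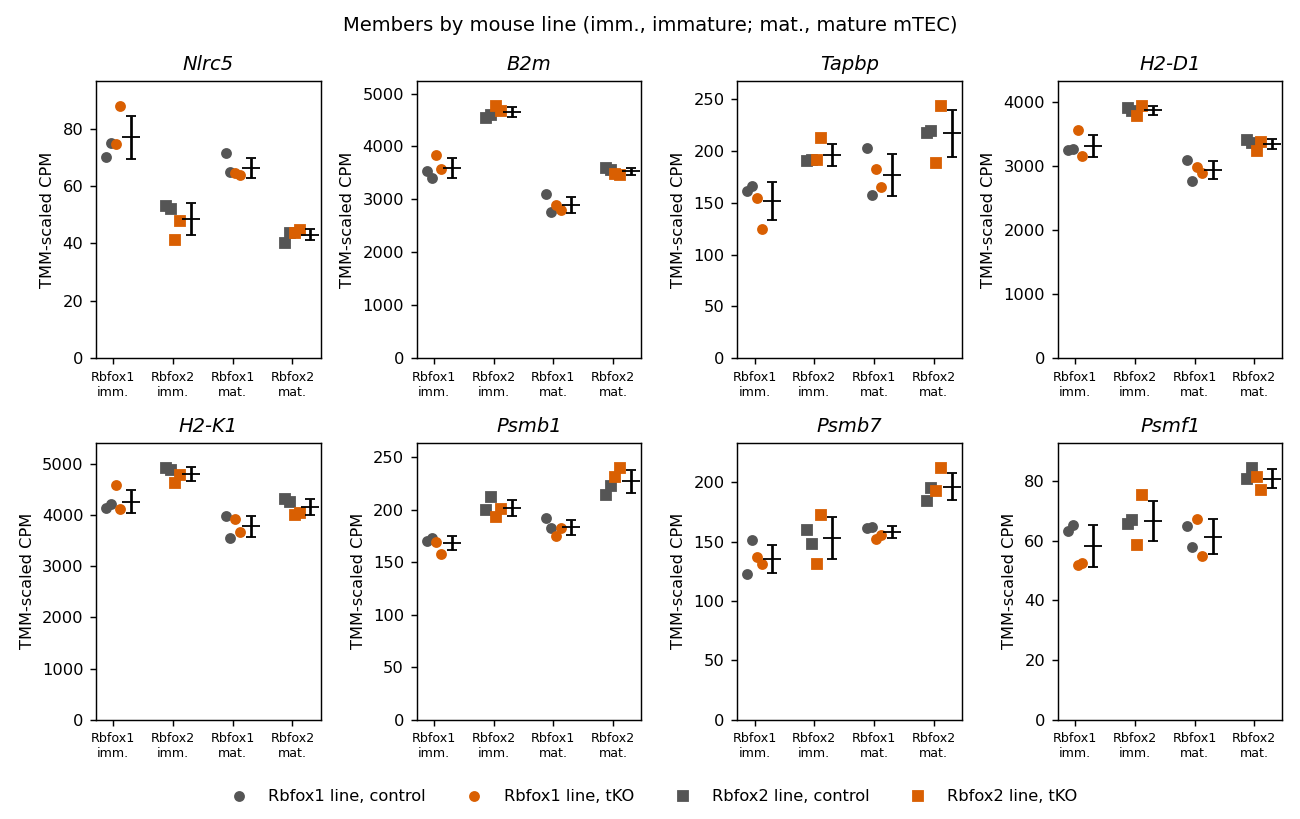
TMM-scaled CPM (y axes, from 0) of 8 members in immature and mature libraries of the Rbfox1 line (circles) and the Rbfox2 line (squares), grey control and orange tKO, with the mean and SD over 4 mice beside the points. Nlrc5 is lower and B2m higher in each of the 4 Rbfox2 line mice than in any Rbfox1 line mouse, within either population.

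Cell type markers differed between the lines too. Aire was lower in the Rbfox2 line by -1.0 (SE 0.082) on the log2 scale in mature and -2.71 (SE 0.17) in immature mTEC, and Krt14 was higher by 0.47 (SE 0.069) and 0.62 (SE 0.061). In immature mTEC 3 of 3 fibroblast genes and 2 of 2 endothelial genes were higher, as were 11.7% of all genes. The fibroblast list summed to 137 to 332 CPM in the Rbfox1 and 843 to 1400 CPM in the Rbfox2 line. In mature mTEC none of these 5 genes passed. Of the 20 regulators, 1 was higher and 4 were lower in mature mTEC of the Rbfox2 line, where 14.2% of all genes were called. The lower ones were Stat2 (-0.67, SE 0.089), Rfx5 (-0.43, SE 0.07), Ciita (-0.31, SE 0.056) and Irf1 (-0.29, SE 0.063). The part of these differences in those of the members was not tested.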

How the data were processed

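The authors deposited 1 table of read counts per gene for 16 libraries from 8 mice, without normalization. Per the labels and the submitters' processing notes, reads were mapped to mm10 with HISAT2 2.1.0, duplicates were removed with Picard 2.10.9 and counts made with featureCounts 1.6.0, and the columns are named for down-sampling to 14500000 in mature and 10000000 in immature mTEC. Lower depth in immature mTEC makes its values less precise. No source used here says whether strand was used or reads with several positions were counted. Names, exon lengths and coordinates came from GENCODE M21 (GRCm38).

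Counts were tested with edgeR 4.0.16 (R 4.3.3), TMM factors and the quasi-likelihood test after filterByExpr (minimum count 10), and p-values were adjusted over all genes tested. Line was a covariate for mature against immature mTEC and for both lines together. The SE is the log2 fold change over the root of F. Ratios used counts plus 0.5. Scripts were tested on simulated data. Replicates are single mice, and replicate libraries differed beyond sampling noise (chi-square over its degrees of freedom 1.87 to 3.00). Mature and immature libraries of a number come from 1 mouse, whose deviations correlated by 0.102 to 0.197.

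Members, gene lists and tests were chosen with earlier results of these data known. Named in full are the catalytic, PA28 and class I genes, the 5 members with the largest called changes each way in a comparison, or the 3 lowest p where none passed, the extremes of each group, and the 3 largest called changes of each list, of which some are not reported here. Alternatives were DESeq2 1.42.0, its size factors, library totals, 2 filters, the replicate block, thinned counts, other sets of libraries and each library left out.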

Additional observations from a re-analysis of the deposited data

Results flagged for a closer look

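In 128 groups of 4 mice (the named members and both ratios, by population and genotype), the highest or lowest mouse stood apart from the others by Dixon's criterion 3 times, where chance gives about 1 in 20. Psmb7 was at 173 CPM in immature mTEC of the second tKO mouse of the Rbfox2 line and at 131 to 137 CPM in the other 3 tKO mice. Psmg2 was at 22.1 CPM in mature mTEC of the second tKO mouse of the Rbfox1 line and at 33 to 34.9 CPM in the other 3. The log2 ratio of Psmb9 to Psmb6 was -1.37 in immature mTEC of the third control mouse of the Rbfox1 line and -0.967 to -0.905 in the other 3 control mice. No member's effect differed between groups by an interaction test.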

How the results depend on the processing

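The counts of 0 members in the tKO comparisons and in the tests of differences between effects stayed at 0 under all alternatives run, the replicate block included. For mature against immature mTEC the block gave 23 called members in control and 24 in tKO mice, beside 24 and 23 without it, and moved no count by over 1.5 times. A fold over 2 left 0 members in both, and 0 between the lines in both populations. In control mice the lower members numbered 8 with DESeq2, 6 among genes with at least 10 counts in every library (which had 15 higher), 9 with library totals and 9 without a filter, and in tKO mice 7 among genes with at least 10 counts. The cause was not tested. Psmb6, not called, changed sign in control mice, to 0.0125 (DESeq2), 0.0121 (its size factors), 0.121 (at least 10 counts), 0.0304 (library totals), 0.0197 (no filter), 0.0478 (without the third immature Rbfox1 control library) and 0.0374 (without the second mature one), and ran from -0.096 to 0.0478 without single libraries.

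The ratios in 4 control or 4 tKO mice alone were -0.431 and -0.602 for Psmb9 to Psmb6 and 0.358 and 0.376 for Psmb10 to Psmb7, in the same direction, where 4 mice cannot reach a p under 0.125; without single mice they were -0.551 to -0.482 and 0.324 to 0.397. Between the lines, library totals gave 11 called members in mature (9 higher, 2 lower) and 5 in immature mTEC (2 higher), no filter 2 lower in mature, and DESeq2 1 lower in immature mTEC. Without single libraries there were 8 to 18 called in mature (6 to 16 higher, 1 to 2 lower) and 5 to 8 in immature mTEC (4 to 6 higher, 1 to 3 lower). No block could be fitted between lines, and no ratio of Psmb8 to Psmb5 was run. All-gene medians moved by under 0.1 between scalings. Psmb8 and Psmg3 had too few counts to be read, for a cause that was not tested.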

Other observations

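Genes of class II presentation also differed between the populations, which were sorted on MHCII itself. H2-Aa was higher in mature mTEC of control mice by 0.87 on the log2 scale, its transactivator Ciita by 0.73 and Rfx5, which binds promoters of both classes, by 0.53, and Rfx5 and Ciita were lower in the Rbfox2 line in both populations. Relb, needed for medullary epithelium to form, was higher by 0.80. These genes were picked out after their values were seen.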
